A study of Mus musculus with 8 samples.

Results

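The miR-30 family was examined in mouse liver made fibrotic with carbon tetrachloride (CCL4). Its 7 members were the miRNAs that the array calls mmu-miR-30a, mmu-miR-30b, mmu-miR-30c, mmu-miR-30d and mmu-miR-30e, the main strands, and mmu-miR-30a* and mmu-miR-30e*, the strands from the other arm of the miR-30a and miR-30e hairpins. They were chosen by name from the 567 mouse miRNAs of the array, and all 7 were called detected on all 8 arrays. Adult male C57BL/6J mice, 8 weeks old, received CCL4 dissolved in olive oil or olive oil alone by intraperitoneal injection, 2 times a week up to week 4 and weekly from then to week 8. Livers were taken at 4, 6 and 8 weeks. The 5 CCL4 arrays were 1 of 4 weeks, 2 of 6 weeks and 2 of 8 weeks, and the 3 olive oil arrays were 1 of each week. Whether an array held RNA of 1 mouse or of several was not stated, so p-values measure the spread between these arrays, which may be technical. CCL4 injury is a model of toxic liver injury, and whole liver was used, in which fewer cells of a type and less RNA per cell cannot be told apart.

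A miRNA hairpin can give a mature strand from each arm, and the strand that is loaded into an Argonaute protein represses mRNAs that pair with its seed, bases 2 to 8. The main strands of the miR-30 family share 1 seed and differ toward the 3′ end, and the star strands carry a different seed. miR-30 miRNAs are abundant in liver, and miR-30c is known to repress connective tissue growth factor (CTGF), a secreted factor that promotes matrix deposition in fibrosis.

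Mature sequences of 5 of the 7 members were found in RefSeq (GRCm38.p6). They are shown because the family is defined by them and because near-identical members can share array signal. Capitals mark the seed.
mmu-miR-30a: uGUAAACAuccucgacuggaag
mmu-miR-30e: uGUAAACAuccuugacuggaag
mmu-miR-30c: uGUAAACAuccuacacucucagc
mmu-miR-30a*: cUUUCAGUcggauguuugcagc
mmu-miR-30e*: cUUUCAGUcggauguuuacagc
The 3 main strands were identical over their first 12 bases, and both star strands shared another seed. Counted from 1 at the 5′ end, mmu-miR-30a and mmu-miR-30e differed by C13U alone, and mmu-miR-30a* and mmu-miR-30e* by G18A alone, with the sequence of miR-30a given first. Both bases lay inside the stretch covered by every probe of these miRNAs. Cross-hybridisation between them was not tested, so similar values of miR-30a and miR-30e may share signal.

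The hairpins that hold both strands are shown to place the star strands, with the main strand first and the star strand second in capitals. That of miR-30a lies at chr1:23272269-23272339 on the plus strand of GRCm38.p6 and that of miR-30e at chr4:120772606-120772697 on the minus strand.
Mir30a: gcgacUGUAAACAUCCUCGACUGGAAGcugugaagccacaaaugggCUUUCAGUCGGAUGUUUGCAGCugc
Mir30e: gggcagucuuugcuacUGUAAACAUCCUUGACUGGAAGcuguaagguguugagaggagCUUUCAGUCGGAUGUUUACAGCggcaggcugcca
RefSeq lists no other gene over Mir30a, and Mir30e lies within the span of the protein-coding gene Nfyc, a subunit of the NF-Y transcription factor, and overlaps Mir30f. In the array's own annotation, which is of the build mm9, the family lay in 3 chromosomal places. The probes of mmu-miR-30a and mmu-miR-30c were on chromosome 1, 19441 bases apart. Those of mmu-miR-30b, at chr15:68169031-68169047, and of mmu-miR-30d, at chr15:68172819-68172832, were 3788 bases apart. Those of mmu-miR-30e were on chromosome 4.

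The measurement was the summed fluorescence of all probes of a miRNA after background subtraction. The array carried 20 spots for each member, with 3 probes for mmu-miR-30a and 2 for each of the others, and no member spot was saturated. Of the 567 mouse miRNAs, 117 to 158 were called detected per array. To compare arrays, the log2 of the signal over the array's own 75th percentile was used and is called the scaled level here. The study's methods name a 75th percentile but leave unstated if every array had its own. That percentile ranged between 6.53 and 11.0 in CCL4 and between 4.71 and 6.48 with olive oil, and it lay near the signals of the dimmest detected miRNAs. A larger divisor lowers every scaled level of an array by the same amount. The CCL4 array of 4 weeks stood apart, with the most miRNAs detected, 158, and a lowest detected signal of 0.139 against 5.59 to 8.16 on the other arrays.

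The signals of the family before any scaling were not lower in CCL4 over the time course. The signal of mmu-miR-30a was 703 on the CCL4 array of 4 weeks, 681 and 948 at 6 weeks, and 1403 and 1263 at 8 weeks, against 754 (4 weeks), 809 (6 weeks) and 958 (8 weeks) with olive oil. The signal of mmu-miR-30b was 169.5 in CCL4 at 4 weeks, 115 and 166 at 6 weeks, and 272 and 216 at 8 weeks, against 134, 132 and 174 with olive oil. At 8 weeks both CCL4 arrays were above the olive oil array for each of the 7 members, with a ratio of the mean CCL4 signal to the olive oil signal from 1.28 (mmu-miR-30a*) to 1.55 (mmu-miR-30e). At 6 weeks the ratios were 0.955 to 1.22 and the CCL4 pair lay on both sides of the olive oil array for 6 of 7 members. The exception was mmu-miR-30e*, at 24.0 and 30.1 against 22.2. At 4 weeks the ratio was 1.26 for mmu-miR-30b and 1.26 for mmu-miR-30d, and 0.894 to 0.977 for the other members.

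**Figure D1:**
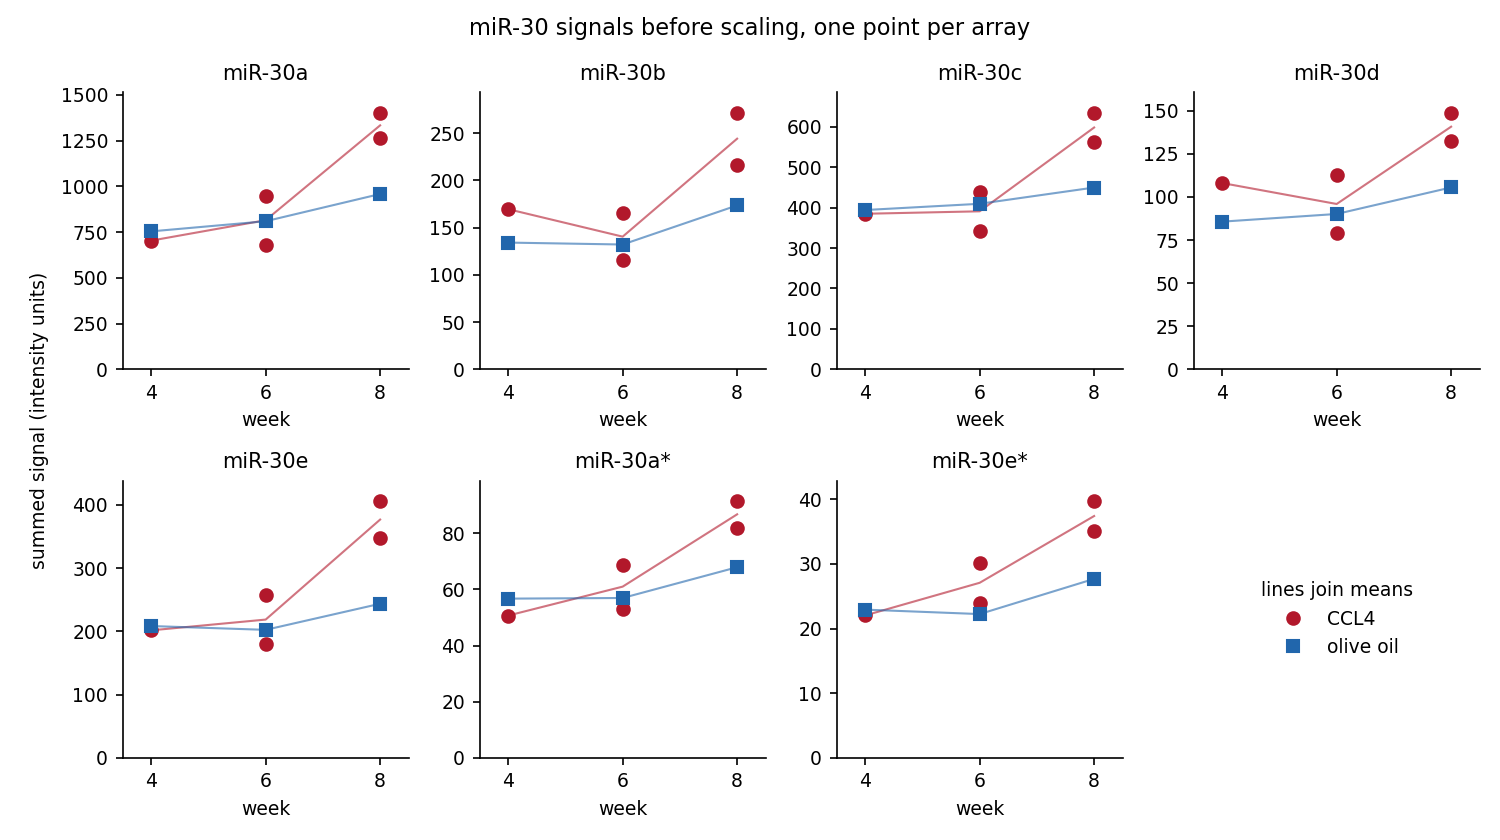
Summed signal of each miR-30 member in intensity units (vertical axes from 0, one panel per member) by week, 1 point per array, with lines through the means. At 8 weeks both CCL4 arrays were above the olive oil array in every panel, and at 4 weeks miR-30b and miR-30d alone were higher in CCL4.

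After scaling, the levels of all 7 members were lower in CCL4 over all weeks, by 0.38 to 0.56 on the log2 scale, a direction that turned for all 7 without scaling and with normexp background correction, and 3 of 7 passed the threshold of an adjusted p of 0.05, mmu-miR-30a, mmu-miR-30c and mmu-miR-30a*. All 7 had an unadjusted p under 0.05. Of all miRNAs tested, 35.3% passed as lower in CCL4 and 48.9% in either direction. An adjusted p is never below its unadjusted p, so at least these shares had an unadjusted p under 0.05. The median difference of the members was -0.43, beside -0.36 for the 113 miRNAs detected on all arrays and -0.32 for all tested. The members were 0.02 to 0.20 below that median of 113, and 31 to 56 of the tested miRNAs were lowered by more than a given member. Over all weeks, the scaled fall of the family was thus close to that of the array's miRNAs in general. At 4 weeks, with 1 array per group, the median of the members was -0.94 beside -0.56 for the 113 miRNAs.

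**Figure D2:**
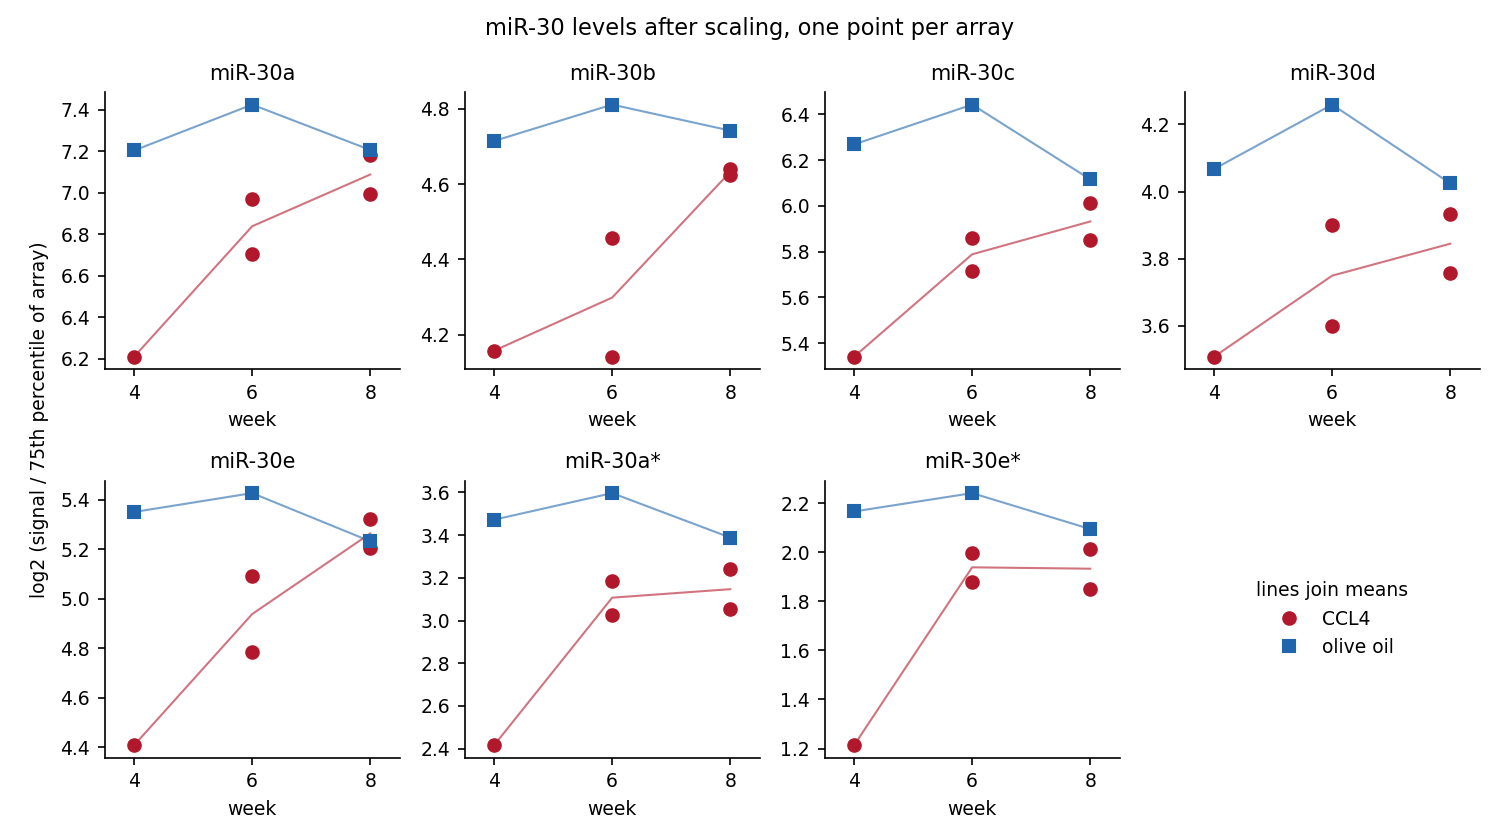
Scaled level of each miR-30 member (log2 of the signal over the 75th percentile of the array, axes fitted to each panel) by week, 1 point per array, with lines through the means. The CCL4 array of 4 weeks was the lowest or next to the lowest in every panel, and the CCL4 arrays of 8 weeks lay close to the olive oil array of that week.

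mmu-miR-30a had scaled levels of 6.21 in CCL4 at 4 weeks, 6.71 and 6.97 at 6 weeks, and 6.99 and 7.18 at 8 weeks, against 7.20, 7.43 and 7.21 with olive oil. Every CCL4 array was below every olive oil array, although the highest CCL4 array and the lowest olive oil array were nearly equal. The mean was 6.81 ± 0.38 (SD, n = 5) in CCL4 and 7.28 ± 0.13 (SD, n = 3) with olive oil. The difference with week in the model was -0.53 (SE 0.18, 95% confidence interval -0.93 to -0.13, limma adjusted p = 0.0311), a ratio of 0.694. The exact permutation test over the 56 splits of the 8 arrays gave p = 0.0536 (two-sided), where the smallest possible is 0.0179. It takes the plain difference of group means, without week. By the same test p was 0.0357 for mmu-miR-30d and mmu-miR-30a*, 0.0714 for mmu-miR-30b, 0.0893 for mmu-miR-30e* and 0.125 for mmu-miR-30e. This order differed from that of limma.

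mmu-miR-30c, which can be cut from the Mir30c-1 and the Mir30c-2 hairpin, showed the largest fall of the main strands under this scaling. Its scaled levels were 5.34 in CCL4 at 4 weeks, 5.72 and 5.86 at 6 weeks, and 5.85 and 6.01 at 8 weeks, against 6.27, 6.44 and 6.12 with olive oil. The groups did not overlap. The difference was -0.56 (SE 0.17, 95% confidence interval -0.93 to -0.19, limma adjusted p = 0.0232), a ratio of 0.679, and the exact permutation p of 0.0179 was the smallest that the splits allow.

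mmu-miR-30b and mmu-miR-30d, neighbours on chromosome 15, did not pass the threshold. The scaled levels of mmu-miR-30b were 4.16 in CCL4 at 4 weeks, 4.14 and 4.46 at 6 weeks, and 4.63 and 4.64 at 8 weeks, against 4.71, 4.81 and 4.74 with olive oil. The groups did not overlap, and the olive oil arrays lay within 0.10 of each other. The difference was -0.38 (SE 0.16, 95% confidence interval -0.73 to -0.03, limma adjusted p = 0.0666). The scaled levels of mmu-miR-30d were 3.51 in CCL4 at 4 weeks, 3.60 and 3.90 at 6 weeks, and 3.76 and 3.93 at 8 weeks, against 4.07, 4.26 and 4.02 with olive oil. Here too the groups did not overlap. The difference was -0.40 (SE 0.16, 95% confidence interval -0.75 to -0.06, limma adjusted p = 0.0527).

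mmu-miR-30e had scaled levels of 4.41 in CCL4 at 4 weeks, 4.78 and 5.09 at 6 weeks, and 5.20 and 5.32 at 8 weeks, against 5.35, 5.43 and 5.23 with olive oil. It was the only member whose groups overlapped, since 1 CCL4 array of 8 weeks exceeded its olive oil counterpart. The difference was -0.42 (SE 0.19, 95% confidence interval -0.84 to -0.01, limma adjusted p = 0.0800). For the 6 of 7 members without overlap, 43.6% of all tested miRNAs likewise had every CCL4 array below every olive oil array.

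Among the star strands, mmu-miR-30a* passed the threshold. Its scaled levels were 2.42 in CCL4 at 4 weeks, 3.03 and 3.19 at 6 weeks, and 3.05 and 3.24 at 8 weeks, against 3.47, 3.60 and 3.39 with olive oil. The groups did not overlap, and the CCL4 array of 4 weeks was well below the other 4. The difference was -0.55 (SE 0.17, 95% confidence interval -0.94 to -0.17, limma adjusted p = 0.0240), close to that of its main strand. mmu-miR-30e*, whose error as the array software estimates it was the largest in the family at 11.7% to 17.4% of the signal, had scaled levels of 1.21 in CCL4 at 4 weeks, 1.88 and 2.00 at 6 weeks, and 1.85 and 2.01 at 8 weeks, against 2.17, 2.24 and 2.09 with olive oil. The groups did not overlap, with a difference of -0.43 (SE 0.17, 95% confidence interval -0.81 to -0.05, limma adjusted p = 0.0585). Its 2 probes gave -0.47 and -0.24 when taken alone, a gap of 0.23, while the probes of each other member lay within 0.09.

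The calls over all weeks depended on the arrays and on the scaling. The share of all tested miRNAs that passed was taken under the main setting alone. The counts of members under other settings therefore have no share beside them and do not set the family apart. The count was 0 of 7 when the CCL4 array of 4 weeks, the first CCL4 array of 6 weeks, or the olive oil array of 4 weeks or of 6 weeks was left out. It was 7 of 7 when the olive oil array of 8 weeks was left out. With week in the model, leaving out an olive oil array or the CCL4 array of 4 weeks removes that whole week from the comparison. Leaving out either array of 4 weeks is thus the same fit. Scaled to the median of the 113 miRNAs detected on all arrays, all 7 members passed with differences from -0.56 to -0.38, and scaled to the 75th percentile of those 113 miRNAs, 0 passed with differences from -0.36 to -0.18. Without scaling the differences were 0.11 to 0.29, above 0 for 7 of 7 members, and the median of the 113 miRNAs was 0.31. These scalings shift all miRNAs of an array by the same amount, so the distance of a member from the median of the 113 miRNAs is the same under them by construction. Where that is not so, the members below this median were 6 of 7 with quantile normalization, 6 of 7 with cyclic loess and 4 of 7 with normexp background correction.

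By week, the scaled levels were lowest against olive oil at 4 weeks. There 5 of 7 members passed the threshold, beside 33.1% of all tested miRNAs that passed as lower. The differences at 4 weeks were -1.06 for mmu-miR-30a*, -0.99 for mmu-miR-30a, -0.95 for mmu-miR-30e*, -0.94 for mmu-miR-30e and -0.93 for mmu-miR-30c (SE 0.33 each, adjusted p by limma of 0.00657 to 0.0150). These are ratios of 0.481 to 0.525. Those of mmu-miR-30b and mmu-miR-30d were -0.56 and -0.56, equal to the median of the 113 miRNAs, with adjusted p by limma of 0.142 and 0.141. Each group had 1 array at 4 weeks. The spread came from the CCL4 pairs of 6 and 8 weeks, where the members of a pair differed by 0.01 to 0.31. This spread was pooled over all tested miRNAs, so every member had the same SE. The p-values at single weeks therefore rest on miRNAs counted as repeats, and not on the spread of a member between arrays of 1 week. Without either CCL4 array of 8 weeks 1 of 7 members passed at 4 weeks, and without scaling 0 passed, with differences of -0.16 to 0.34.

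At 6 weeks 0 of 7 members passed by limma, 2 of them (mmu-miR-30a and mmu-miR-30c) had an unadjusted p under 0.05, and 3.01% of all tested miRNAs passed as lower. The differences were -0.65 for mmu-miR-30c, -0.59 for mmu-miR-30a and -0.30 for mmu-miR-30e*, with the other members between -0.51 and -0.49, beside a median of -0.45 for the 113 miRNAs. Without the second CCL4 array of 6 weeks 6 of 7 members passed. At 8 weeks 0 of 7 passed by limma, none had an unadjusted p under 0.05, and 0.752% of all tested miRNAs passed as lower. The differences lay between -0.24 (mmu-miR-30a*) and 0.03 (mmu-miR-30e), with a median of -0.14 for the 113 miRNAs. The differences became smaller from week to week for 7 of 7 members. The test of treatment by week passed for 0 of 7 members by limma, with 0 at an unadjusted p under 0.05 and adjusted p of 0.446 to 0.806, and for 6.02% of all tested miRNAs. A change of the treatment difference with time was therefore not shown for any member.

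The order of the group means of the scaled level was much the same among the members. CCL4 at 4 weeks was lowest and olive oil at 6 weeks highest for 7 of 7 members. The same groups were lowest and highest for the non-members mmu-let-7d (6.07 and 6.99), mmu-miR-148b (1.03 and 2.01) and mmu-miR-26a (6.11 and 6.88). Those miRNAs were picked for their likeness to the family mean. The share of all tested miRNAs with this order was not taken, so the order does not set the family apart. CCL4 at 6 and at 8 weeks came next for each member except mmu-miR-30e, in which CCL4 at 8 weeks (mean 5.26) was above olive oil at 8 weeks (5.23). The 2 CCL4 groups that were neighbours in this order, 6 and 8 weeks, overlapped in their arrays for mmu-miR-30c, mmu-miR-30d, mmu-miR-30a* and mmu-miR-30e*. The olive oil arrays spanned 0.10 to 0.33 within a member, beside gaps of 0.01 to 0.31 between the arrays of a CCL4 pair, and as each olive oil week had 1 array their order has no replicate check.

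The members on chromosome 15 were set against the other main strands within each array, a comparison that needs no scaling and that was chosen after its values were seen, so no test is given. The mean log2 of mmu-miR-30b and mmu-miR-30d, less the mean of mmu-miR-30a, mmu-miR-30c and mmu-miR-30e, was -1.49 in CCL4 at 4 weeks. It was -1.87 and -1.80 in CCL4 at 6 weeks, -1.82 and -1.89 at 8 weeks, and -1.88, -1.90 and -1.80 with olive oil. The CCL4 array of 4 weeks thus exceeded its control by 0.40, and the other 7 arrays lay between -1.90 and -1.80. This rests on 1 array, the one that stood apart in its number of detected miRNAs, and the part of that array in the value was not tested. Over all weeks, the within-array differences between main strands changed by 0.004 to 0.17 with CCL4 over the 10 pairs, and the groups overlapped for every pair. The lowest adjusted p of the exact permutation test was 0.491, and a single pair at the smallest possible p would reach 0.179 after adjustment, so a difference in 1 pair alone could not have passed.

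Whether the strands of a hairpin responded alike was asked within each array, as the log2 signal of the star strand less that of the main strand. This value does not depend on a factor common to an array, and as probes differ in brightness it is read for its change and not as an amount. For miR-30a it was -3.79 in CCL4 at 4 weeks, -3.68 and -3.79 at 6 weeks, and -3.94 and -3.94 at 8 weeks, against -3.73, -3.83 and -3.82 with olive oil. The groups overlapped, with means of -3.83 ± 0.11 (SD, n = 5) and -3.79 ± 0.05 (SD, n = 3). The difference was -0.03 (SE 0.08, 95% confidence interval -0.21 to 0.15, limma adjusted p = 0.859 over 8 hairpins, exact permutation p = 0.643).

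For miR-30e the star strand less the main strand was -3.19 in CCL4 at 4 weeks, -2.91 and -3.09 at 6 weeks, and -3.35 and -3.31 at 8 weeks, against -3.19, -3.19 and -3.14 with olive oil. The CCL4 arrays lay on both sides of the olive oil arrays. Their means were -3.17 ± 0.18 (SD, n = 5) and -3.17 ± 0.03 (SD, n = 3), and the difference was -0.005 (SE 0.09, 95% confidence interval -0.21 to 0.20, limma adjusted p = 0.959 over 8 hairpins, exact permutation p = 1.0). On signals without a correction by brightness, a change in the strand ratio over all weeks was thus not shown for miR-30a or miR-30e. The intervals reached from -0.21 to 0.20 at the widest. They hold for these signals and for the average over the weeks, and not for a single week. Of the 8 hairpins with both strands tested 12.5%, 1 hairpin, passed, that of mmu-miR-199b*, whose value rose by 0.72. With quantile normalization or cyclic loess, which correct by brightness, the difference was -0.34 under each for miR-30a (both passed) and -0.26 and -0.28 for miR-30e (the latter passed).

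By week, both hairpins had their star strand less main strand above olive oil on both CCL4 arrays at 6 weeks and below it on both at 8 weeks. The mean difference from olive oil was 0.10 at 6 weeks and -0.12 at 8 weeks for miR-30a, and 0.19 and -0.19 for miR-30e. The test of treatment by week, run after these values were seen, gave an adjusted p by limma of 0.271 for each of them, and 0 of 8 hairpins passed. The other strand of another hairpin, mmu-miR-30c-2*, was also detected on all arrays, at a signal of 8.09 to 19.9. Its value less that of mmu-miR-30c was -5.13 ± 0.17 (SD, n = 5) in CCL4 and -5.21 ± 0.38 (SD, n = 3) with olive oil, with an exact permutation p of 0.732.

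The remaining relatives on the array were at or below detection. mmu-miR-30b* was detected on 0 of 8 arrays and mmu-miR-30c-1* on 1. mmu-miR-384-5p shares the seed and the first 8 bases of the main strands, and it too was detected on 0 of 8 arrays. Its sequence is shown with that of mmu-miR-30c-2*, which has a seed of its own.
mmu-miR-384-5p: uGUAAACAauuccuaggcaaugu
mmu-miR-30c-2*: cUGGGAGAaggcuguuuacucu
The scaled level of mmu-miR-30c-2* over all weeks was lower in CCL4 by a log2 difference of -0.54 (SE 0.15, limma adjusted p = 0.0209). Its groups overlapped, the exact permutation p was 0.179, and without scaling the difference was 0.13. The array software put the error of mmu-miR-30c-2* at 18.7% to 44.0% of the signal, above the range of mmu-miR-30e*.

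The miRNAs most alike to the mean of the 5 main strands over the 8 arrays were mmu-let-7d, mmu-miR-148b and mmu-miR-26a, by the root mean square distance of the scaled levels after each miRNA's own mean was taken off. Their distances were 0.043, 0.047 and 0.052 log2 units, beside a median of 0.19 over the 113 miRNAs. The members ranked 7th to 29th of 113, so other miRNAs followed the family mean more closely than its own members did. All arrays share their scaling, and a factor common to an array draws miRNAs together in this measure.

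Among 9 miRNAs known to repress CTGF or collagens, 6 were tested, 3 passed as lower in CCL4 over all weeks and 0 as higher, with a median of -0.46, beside 35.3% and 13.5% of all tested miRNAs and a median of -0.32. The 3 were the miR-29 family, which represses collagen mRNAs. The log2 differences of the scaled level were -0.68 (SE 0.16, limma adjusted p = 0.0135) for mmu-miR-29a, -0.60 (SE 0.17, limma adjusted p = 0.0209) for mmu-miR-29b and -0.89 (SE 0.21, limma adjusted p = 0.0135) for mmu-miR-29c. miR-133a and miR-18b were detected on 0 arrays and miR-133b on 1. Without scaling the differences of mmu-miR-29a, mmu-miR-29b and mmu-miR-29c were -0.01, 0.06 and -0.22, and none of these 3 passed. Of the 6 tested, mmu-miR-18a alone passed without scaling, as higher (1.09, limma adjusted p = 0.00753). The median of all tested miRNAs without scaling was 0.35, and the share that passed was not taken. mmu-miR-18a was detected on 5 of the 8 arrays. With scaling its difference was 0.42 and did not pass. The scaled fall of mmu-miR-30c, -0.56, was smaller than the scaled falls of the miR-29 family, and the differences between them were not tested.

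Lists of cell type markers were read beside these values, and their changes differed by list and by scaling. The summed scaled signal of the 3 hepatocyte miRNAs, miR-122, miR-192 and miR-194, ranged between 2328 and 4120 in CCL4 and between 5260 and 5882 with olive oil, and 3 of 3 passed as lower, beside 35.3% of all tested miRNAs. This direction depended on the scaling, since the summed signals before scaling were 21270 to 40742 in CCL4 and 27682 to 34103 with olive oil and 0 of 3 passed, with log2 differences of -0.11 to 0.07. Of 5 mesenchymal miRNAs 4 were tested and 3 passed as higher, beside 13.5% of all tested miRNAs, with sums of 25.1 to 41.7 in CCL4 and 20.2 to 26.2 with olive oil, and miR-145 was detected on no array. Of 5 biliary and epithelial miRNAs 2 were tested and 1 passed as higher, with sums of 4.75 to 7.34 and 4.64 to 4.91, and miR-200c, miR-141 and miR-429 were detected on no array. Without scaling 4 of 4 and 2 of 2 of these passed as higher. Their log2 differences were then 1.01 to 1.67 and 0.92 to 1.12, beside a median of 0.35 for all tested miRNAs. The endothelial sums were 136 to 205 in CCL4 and 213 to 225 with olive oil, with 0 of 2 past the threshold, and before scaling they overlapped, 888 to 2034 against 1060 to 1422. The leukocyte list (3 of 5 tested, miR-150 on no array) and the erythroid list (3 tested) had 0 members past the threshold and overlapping sums, 44.3 to 139 against 58.5 to 95.6 and 378 to 961 against 537 to 1225. Without scaling 1 of 3 leukocyte miRNAs and 0 of 3 erythroid miRNAs passed, the former as higher. No share of all tested miRNAs that passed was taken without scaling, so the unscaled counts stand without one. The 4 pancreatic miRNAs were detected on no array. The part of cell composition in the miR-30 values was not tested.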

How the data were processed

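Liver miRNA of 8 mouse samples was measured on single-colour Agilent arrays, all on 1 slide and in 1 scan. The intensity values deposited by the authors were made, per the file headers, with Feature Extraction 10.5.1.1, which removed background and added up a miRNA's probes, with no scaling between arrays. The methods name another version of that software. The processed table deposited by the authors was checked against these signals and matched their log2, with a floor of 1, within 1.107e-06. It was used as an alternative.

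Each array's signals were scaled to their own 75th percentile over 567 mouse miRNAs, floored at 0.01 and log2 transformed. The methods take the percentile over the measurements of a species and do not say if it was taken on each array. They set the floor before the division, which was run as an alternative. miRNAs called detected on at least 3 arrays were tested, 133 in all. CCL4 was compared with olive oil by limma 3.58.1 in R 4.3.3, with week as a factor. Single weeks and treatment by week used a mean per group. For the members, limma then used 1 spread common to all tested miRNAs. Adjusted p is by Benjamini-Hochberg over all tested miRNAs, two-sided, with a threshold of 0.05. The scripts were tested on simulated data. Single values used exact permutation of the plain difference of group means over 56 splits, without week (Python 3.11.15, scipy 1.17.1). Strand differences were fitted by limma over the 8 hairpins with both strands tested. Members were matched by the array's miRNA name, and star strands were placed on their hairpins by the distance between the 3′ ends, which was 41 bases for miR-30a and 42 for miR-30e in both the array annotation and RefSeq.

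The members and lists were chosen with earlier results of these data known. The miRNAs named are the members, other strands and the seed relative miR-384-5p, the 3 miRNAs most alike to the mean of the main strands, and a list of 9 repressors of CTGF or collagens, with values for those past the threshold. Alternatives were 6 other scalings, the floor, normexp with an offset of 50, the filter, the variance model, the week term, the replicate number, the methods' t-test and leaving out each array. The repressor and marker lists were also read without scaling, an alternative chosen after seeing the data. Sequences are from RefSeq, GRCm38.p6. The number of arrays limits the precision.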

Additional observations from a re-analysis of the deposited data

Results flagged for a closer look

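On the CCL4 array of 4 weeks, the only CCL4 array of that week, the scaled log2 levels of both star strands lay far below the other 4 CCL4 arrays. mmu-miR-30a* was at 2.42 there, with a gap to the next array of 0.742 of the whole range, and mmu-miR-30e* at 1.21, with a gap of 0.795, where Dixon's 95% critical value for 5 samples is 0.71. Of 9 values examined these 2 passed, both on 1 array, and chance passes about 1 in 20 groups. Dixon's test treats the 5 CCL4 arrays as repeats of 1 group, although they came from different weeks. A part of week in these gaps was not tested. Before scaling the gaps were small. The signal of mmu-miR-30a* was 50.7 on this array and 53.2 on the next lowest CCL4 array, the first of 6 weeks. That of mmu-miR-30e* was 22.0 and 24.0 on the same arrays.

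Effects of CCL4 differed in direction between weeks on every array for 3 within-array differences. The star strand less the main strand of miR-30a was higher against olive oil at 6 weeks than at 4 weeks by 0.16 and changed by -0.22 from 6 to 8 weeks, and that of miR-30e by 0.20 and -0.38. The test of treatment by week did not pass for either (limma adjusted p = 0.271). The chromosome 15 members less the other main strands changed by -0.45 from 4 to 8 weeks and by -0.12 from 6 to 8 weeks, a comparison chosen after its values were seen, and this difference was not tested.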

How the results depend on the processing

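The count of members past the threshold over all weeks, 3, was 0 with the 75th percentile of the miRNAs detected on all arrays, cyclic loess, no scaling, the array control features, normexp, the processed table, no filter on detection or no week term, and with the methods' t-test after Benjamini-Hochberg or Bonferroni adjustment. It was 1 with quantile normalization (mmu-miR-30d), 5 with an intensity trend, 5 with the methods' t-test unadjusted, 6 with the filter on detection on all arrays and 7 with the median scaling. No share of all tested miRNAs was taken under the alternatives, so the counts under them stand without one. Leaving out 1 array gave 0 to 7. At 4 weeks the count, 5, was 0 with cyclic loess, no scaling, normexp, the processed table or no filter, and 1 to 7 without 1 array. At 6 weeks the count, 0, was 6 with the median scaling and 1 with quantile normalization, and 0 to 6 without 1 array. At 8 weeks it was 0 under every alternative run. For treatment by week, 0, it was 1 with quantile normalization and 0 to 2 without 1 array.

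The direction over all weeks turned for all 7 members without scaling, in the processed table and with normexp. For the 3 members past the threshold the values were, without scaling and in the processed table, mmu-miR-30a (0.14), mmu-miR-30c (0.11) and mmu-miR-30a* (0.12), and with normexp mmu-miR-30a (0.0538), mmu-miR-30c (0.0103) and mmu-miR-30a* (0.0126). With cyclic loess mmu-miR-30a alone turned (0.0059), and with the array control features mmu-miR-30b alone (0.00046). None of these values passed the threshold. The strand difference of miR-30a, -0.03, was -0.34 with quantile normalization and -0.34 with cyclic loess, and -0.10 to 0.03 without 1 array. That of miR-30e, -0.005, was -0.26 with quantile normalization, -0.28 with cyclic loess, 0.20 with the second probe of each strand alone, and -0.11 to 0.10 without 1 array. Scalings by a factor per array shift all its miRNAs alike, and the filters change how many miRNAs are tested. For the other alternatives, quantile normalization and cyclic loess among them, the cause was not tested.

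With the replicate number as a block 6 of 7 members passed. The numbers gave 1 pairing only, of the CCL4 arrays of 6 and 8 weeks, whose deviations correlated at r = 0.05 over the tested miRNAs, so the samples share only a number. Signals of mmu-miR-30b* and mmu-miR-384-5p were below detection, and differences in them were not detectable.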
